A study of Mus musculus with 5 samples.

Results

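The cytosolic nucleic acid sensors Zbp1, Ifi204, Ifi213, Mndal, Ddx58, Ifih1 and Dhx58 were read across the cell types of the atherosclerotic mouse aortic arch. These 7 genes were taken by name from the 16498 genes of the single-cell RNA sequencing (scRNA-seq) table by a rule that uses no measured value, though with earlier results of these data known, and all 7 were present. They comprise Zbp1, 3 genes of the p200 family (Ifi204, Ifi213 and Mndal) and the 3 RIG-I-like receptors (Ddx58, Ifih1 and Dhx58).

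The study compared Apoe-/- mice (Oasl1+/+), which lack apolipoprotein E and develop atherosclerosis, with their Oasl1-/-Apoe-/- littermates. Oasl1 is a 2′-5′-oligoadenylate synthetase-like protein and is itself induced by interferon. All mice carried the Apoe deletion on a C57BL/6 background and were fed normal chow for 28 weeks, and the Oasl1 allele lacks the promoter and exon 2 in every cell of the body. Live cells of the arch, from the root to the curvature, were sorted with DAPI from pooled mice (n = 6) and loaded on the 10x Genomics platform, giving 2 Apoe-/- libraries and 3 Oasl1-/-Apoe-/- libraries. Whether separate pools of mice stand behind the libraries of a group is not stated, so the p-values measure the spread between libraries.

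The table held 18260 cells, between 3212 and 4338 per library, with 16959976 to 19813039 unique molecular identifiers (UMIs, each a counted transcript molecule) per library and a median of 4757 and 4495 UMIs per cell in the Apoe-/- and 4883, 4951 and 5186.5 in the Oasl1-/-Apoe-/- libraries. Mitochondrial UMIs took a median of 4.91% and 5.004% of a cell's UMIs in the former and 4.03%, 3.95% and 3.90% in the latter, so cell quality measures moved with the groups, and their part in the results was not tested. Of 18094 barcodes, 165 occurred in more than 1 library. Oasl1 stood at 0.0145 and 0.00854 UMIs per 10000 (CP10K) in the Apoe-/- libraries and at 0.169, 0.163 and 0.198 CP10K in the libraries labelled Oasl1-/-Apoe-/-. These UMIs lie at the 3′ end of the transcript, outside the deleted promoter and exon 2, so they do not check the genotype. A deletion of the promoter would be expected to lower rather than raise the transcript. The genotype, and with it the direction of every comparison, therefore rests on the labels alone, and these libraries are called the labelled knockout libraries. Cell types were rebuilt from marker genes, so each is macrophage-like, endothelial-like and so on (the suffix is left out from here), and values can differ from the study's for that reason. Of 25 clusters 24 could be named, and 7 types had at least 20 cells in every library: smooth muscle cells, endothelial cells, macrophages, fibroblasts, monocytes, dendritic cells, and natural killer and T cells (NK/T cells).

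Cytosolic sensors recognise foreign or misplaced DNA and RNA inside the cell and start the type I interferon response. Zbp1 binds left-handed Z-form DNA and RNA and can start necroptosis and apoptosis through Ripk3. The p200 proteins carry HIN domains that bind DNA, and Ifi204 is the mouse member most often compared with human IFI16, which signals through STING. Ddx58 (RIG-I) and Ifih1 (MDA5) are helicases that bind short 5′-triphosphate RNA and long double-stranded RNA and signal through the adaptor Mavs, while Dhx58 (LGP2) lacks the signalling domains and modulates them. Most of these genes are themselves induced by interferon, and macrophages and dendritic cells are well-known sites of their expression.

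In the mouse genome (GRCm38, GENCODE vM21) all 7 genes lie on the minus strand. The 3 p200 members are neighbours on chromosome 1: Ifi213 (ENSMUSG00000073491) at chr1:173566283-173599274, Ifi204 (ENSMUSG00000073489) at chr1:173747293-173766943 and Mndal (ENSMUSG00000090272) at chr1:173849126-173942491, with 148.0 kb and 82.2 kb between them. Zbp1 (ENSMUSG00000027514) lies at chr2:173206612-173218923, Ifih1 (ENSMUSG00000026896) at chr2:62595798-62646255, Ddx58 (ENSMUSG00000040296) at chr4:40203773-40239828 and Dhx58 (ENSMUSG00000017830) at chr11:100694884-100704271. The p200 genes are close copies of each other, so the counting could have split or discarded reads they share, and their single values are uncertain in that respect.

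RefSeq start sites (GRCm38.p6, 250 bases before to 50 bases after the start) were given for Ifi213, Mndal, Ddx58 and Ifih1, with 2 entries for Mndal, and none for Zbp1, Ifi204 and Dhx58. Each of the 5 entries held the paired GAAA motif (GAAANNGAAA, on either strand), which is the core read by interferon-regulatory factors and by the interferon-stimulated factor complex. The same letters occurred in 1131 of 32851 promoters (3.44%). The windows are shown, 5′ to 3′ on the minus strand of the genome, because they hold these letters, which are in capitals, at 4 of the 7 genes.
Ifi213, chr1:173599296-173599385, 73 bases before the start: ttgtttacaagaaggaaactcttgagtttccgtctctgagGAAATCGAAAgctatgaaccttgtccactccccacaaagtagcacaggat
Mndal, chr1:173880188-173880263, 36 bases before the start: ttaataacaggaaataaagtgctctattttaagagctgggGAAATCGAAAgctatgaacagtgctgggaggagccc
Mndal second start, chr1:173879963-173880052, motif on the other strand 54 bases before the start: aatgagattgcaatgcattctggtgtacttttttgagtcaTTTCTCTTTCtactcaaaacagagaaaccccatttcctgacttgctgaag
Ifih1, chr2:62646206-62646233, motif at base 33 of the transcript: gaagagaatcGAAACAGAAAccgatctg
Ddx58, chr4:40239804-40239825, motif on the other strand at base 3 of the transcript: agTTTCGATTTCctatggccag

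Ifi213 and Mndal shared an unbroken run of 20 bases around the motif (ggaaatcgaaagctatgaac). Both Mndal starts lie inside the gene body given by GENCODE. A match of letters is a description and shows no binding.

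In the whole aorta all 7 sensors were higher in the labelled knockout libraries. Zbp1 was at 0.0843 and 0.0709 CP10K in the Apoe-/- libraries and at 0.689, 0.640 and 0.636 CP10K in the labelled knockout libraries, which is 8.44-fold (2.47 on the log2 scale, SE 0.0703, limma adjusted p = 8.08e-09). Among the p200 genes, Ifi213 was at 0.0194 and 0.0082 CP10K against 0.186, 0.148 and 0.175 CP10K (log2 difference 1.78, SE 0.102, limma adjusted p = 4.92e-07). The groups did not overlap for any of the 7 genes, while 28.4% of all 9836 genes tested were higher without overlap. The log2 difference was 1.86 for Ifi204, 1.84 for Mndal, 1.06 for Ifih1, 1.12 for Dhx58 and 0.65 for Ddx58, with limma adjusted p between 1.47e-08 and 0.000259. Of all 9836 genes tested 20.5% were higher and 20.6% lower past the threshold, so 7 of 7 stand against a large background of changed genes. The log2 differences are on the scale of log2(mean CP10K + 0.05), which understates the change of low genes. In values summed over the tissue, fewer cells of a type and less RNA per cell cannot be told apart.

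The cell types themselves differed in number between the groups. The share of macrophages was 10.4% and 9.94% in the Apoe-/- libraries and 21.3%, 20.5% and 22.2% in the labelled knockout libraries, and that of smooth muscle cells 62.7% and 65.1% against 42.0%, 41.5% and 41.5%. When every library was reweighted to the same cell type shares, all 7 sensors were still past the threshold, with log2 differences of 1.87 for Zbp1, 1.13 for Ifi204, 1.48 for Ifi213, 1.26 for Mndal, 0.52 for Ddx58, 0.80 for Ifih1 and 0.75 for Dhx58. Each difference was smaller than without the reweighting. The share of all genes past the threshold after the reweighting was not counted (20.5% were higher without it).

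Each sensor had its own order of cell types in the Apoe-/- aorta. Zbp1 was highest in monocytes (0.704 and 0.735 CP10K), followed by NK/T cells, dendritic cells, macrophages, fibroblasts, endothelial cells and smooth muscle cells, and no neighbours in this order overlapped. Ifi204 was likewise highest in monocytes (0.993 and 1.53 CP10K), then macrophages (0.641 and 0.663 CP10K), and no UMI of it was found in NK/T cells. Mndal was highest in NK/T cells (0.767 and 0.903 CP10K) and Ifi213 in dendritic cells, where 1 of the libraries was at 0.525 CP10K and the other at 0. Of the RIG-I-like receptors, Ddx58 was highest in fibroblasts (0.311 and 0.183 CP10K) and endothelial cells (0.156 and 0.196 CP10K), which overlapped, and Ifih1 in endothelial cells (0.302 and 0.152 CP10K), overlapping with dendritic cells (0.220 and 0.0708 CP10K). Dhx58 was highest in monocytes (0.148 and 0.220 CP10K), dendritic cells and macrophages, each overlapping with the next. In smooth muscle cells 6 of the 7 sensors were at or below 0.0403 CP10K in every library, and Ddx58 was the exception.

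In the labelled knockout libraries the order was partly another one. Zbp1 was again highest in monocytes, followed by dendritic cells, while macrophages and NK/T cells overlapped at mean levels of 1.487 and 1.486 CP10K. Mndal was at 1.95 CP10K in NK/T cells and 1.92 CP10K in dendritic cells, which overlapped. Ifi213 stood highest in monocytes (mean 0.768 CP10K), overlapping with NK/T cells and, after them, dendritic cells. For Ifih1 monocytes (0.355 CP10K), macrophages (0.334 CP10K) and endothelial cells (0.307 CP10K) each overlapped with the next. Ddx58 kept a broad pattern, with the 6 types from NK/T cells (0.332 CP10K) down to macrophages (0.139 CP10K) each overlapping with the next, and smooth muscle cells below them (0.0938 CP10K).

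**Figure D1:**
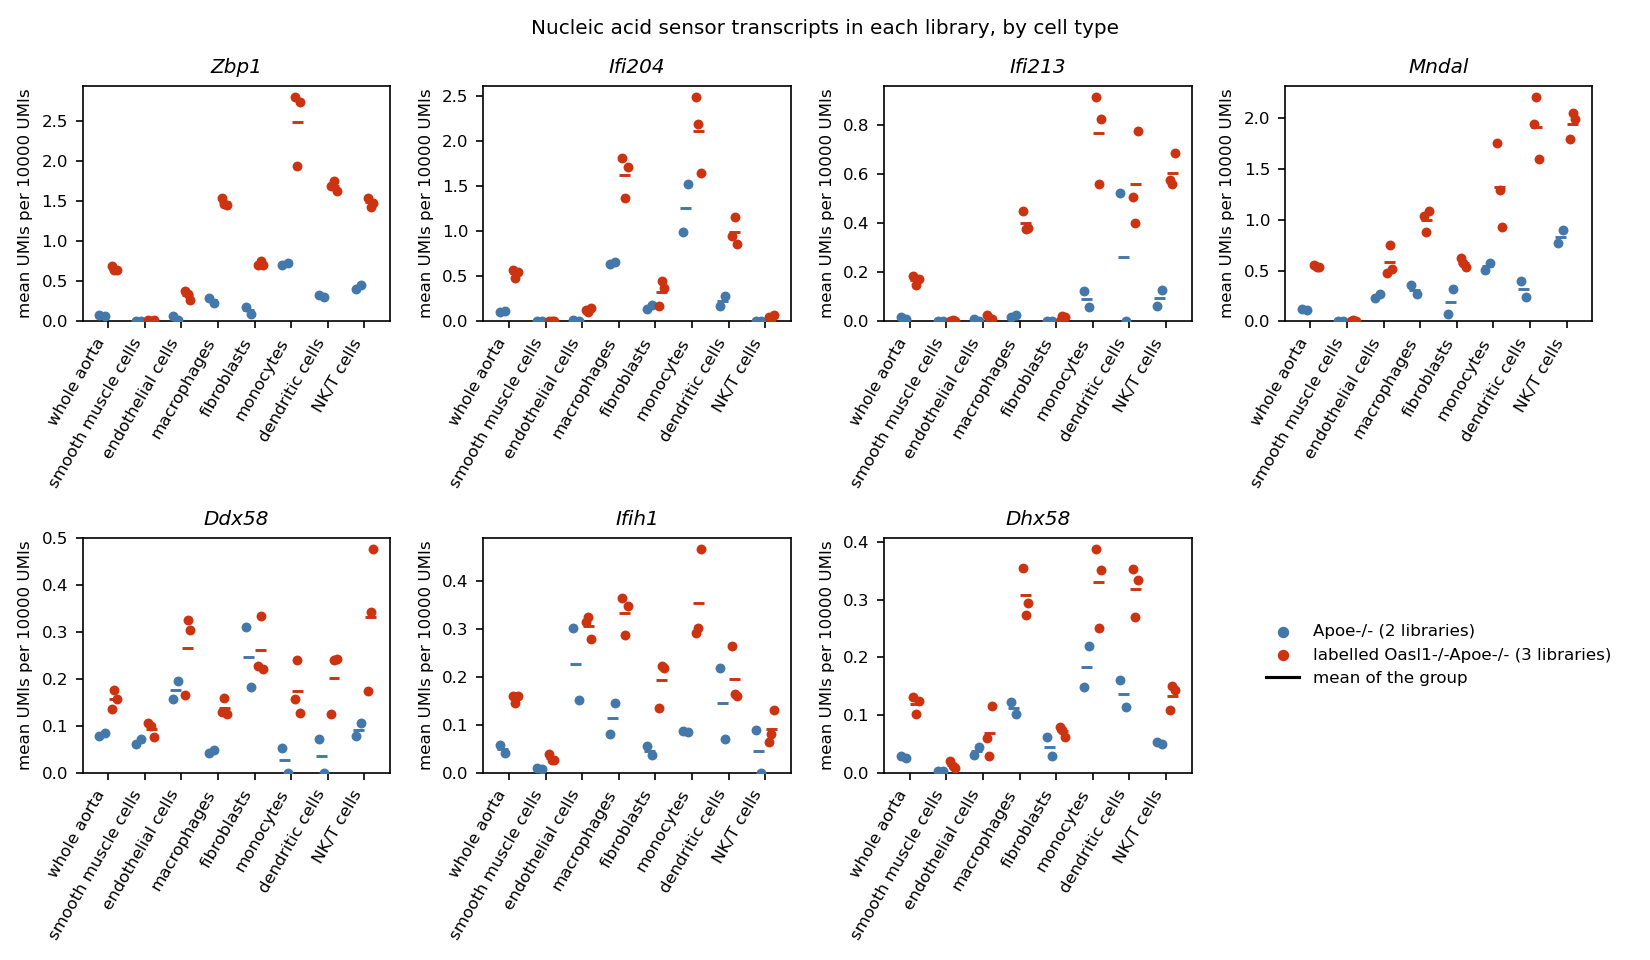
Mean level of each of the 7 sensors (CP10K) in each of the 5 libraries, by cell type, with Apoe-/- and labelled knockout libraries in different colours and every point 1 library. In macrophages the points of the groups are apart for all 7 genes, while in endothelial cells and fibroblasts those of Ddx58 and Dhx58 overlap.

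Within the cell types, where a change in the number of cells of a type no longer enters, the sensors were called higher in 23 of 40 tests and lower in none. The number past the threshold (limma, Benjamini-Hochberg adjusted p under 0.05 over all genes tested in the type) was 7 of 7 in macrophages, 3 of 6 tested in endothelial cells, 3 of 6 in fibroblasts, 4 of 7 in monocytes, 3 of 7 in dendritic cells, 3 of 6 in NK/T cells and 0 of 1 in smooth muscle cells. Of all genes tested, 10.2% were higher and 6.32% lower in macrophages, 2.89% and 1.32% in endothelial cells, 2.28% and 1.77% in fibroblasts, 1.92% and 1.49% in monocytes, 1.05% and 0.448% in dendritic cells, 1.19% and 0.52% in NK/T cells, and 4.21% and 2.31% in smooth muscle cells. The sensors' shares lay above these backgrounds in the 6 types with a call. The filter asked for a mean of 0.05 CP10K over the libraries, so a sensor could pass through the group in which it was high. It left out Ifi213 in endothelial cells and fibroblasts, Ifi204 in NK/T cells and all but Ddx58 in smooth muscle cells. At an unadjusted p under 0.05 there were 31 of 40, and limma-voom on summed UMIs called 21. The share of all genes at that unadjusted p or by limma-voom was not counted, here or further below, and the percentages above do not apply to these counts. The mean was higher in the labelled knockout libraries for all 7 sensors in each of the 7 types. All 7 sensors were higher without overlap between the libraries in macrophages and monocytes (of all genes past the filter, 26.2% and 13.99%). The number was 6 in NK/T cells (15.3%), 5 in dendritic cells (16.3%) and smooth muscle cells (21.05%), and 3 in endothelial cells (14.9%) and fibroblasts (19.1%). These counts include sensors below the filter, which the percentages do not. Such was Ifi204 in NK/T cells (0 against 6 UMIs). In smooth muscle cells they were Zbp1 (16 against 22 UMIs), Ifi204 (2 against 5), Ifih1 (24 against 63) and Dhx58 (7 against 20). Counts and percentages in these types thus cover unlike sets of genes. The median log2 difference over all genes lay between -0.03 and 0.06. Depth also differed within types, most in fibroblasts, at a median of 4166 UMIs per cell in the Apoe-/- and 7006 in the labelled knockout libraries, and its part was not tested beyond the thinning of cells below.

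**Figure D2:**
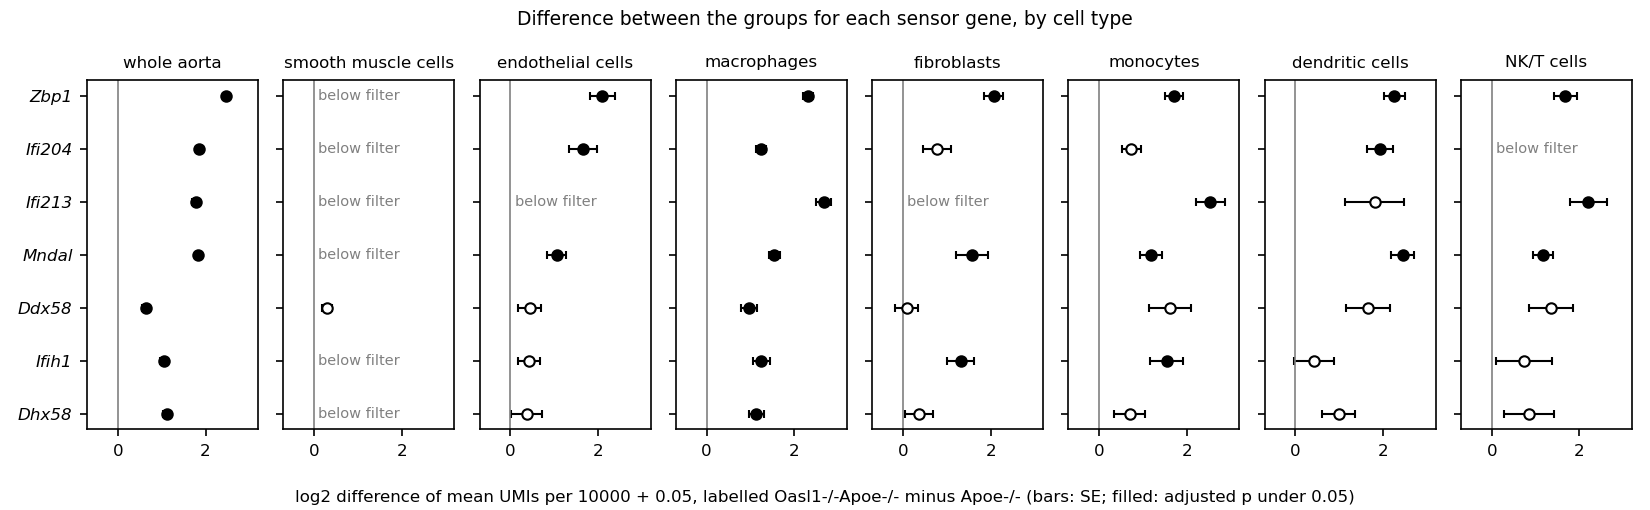
Log2 difference (labelled knockout minus Apoe-/-, on log2(CP10K + 0.05)) of each sensor in the whole aorta and in each cell type, with bars of 1 SE and filled points for limma adjusted p under 0.05. Zbp1 is filled in every type where it passed the filter on low values, at 1.68 to 2.31, and Ddx58 only in macrophages among the types.

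Zbp1 and Mndal were past the threshold in all 6 types in which they were tested, and the other sensors in 1 to 3. In macrophages it was at 0.286 and 0.235 CP10K in the Apoe-/- libraries and at 1.54, 1.47 and 1.45 CP10K in the labelled knockout libraries (5.71-fold, log2 difference 2.31, SE 0.111, limma adjusted p = 3.35e-10). Dendritic cells had 0.334 and 0.299 CP10K against 1.70, 1.76 and 1.63 CP10K (log2 difference 2.25, SE 0.237, adjusted p = 5.55e-05 by limma). The 3 labelled knockout libraries lay within a narrow band in both types, far above the Apoe-/- libraries. Monocytes had the highest levels, with 0.704 and 0.735 CP10K against 2.80, 1.94 and 2.74 CP10K (log2 difference 1.71, SE 0.205, limma adjusted p = 1.53e-05). NK/T cells were at 0.408 and 0.449 CP10K against 1.54, 1.43 and 1.48 CP10K (log2 difference 1.68, SE 0.266, limma adjusted p = 0.000183). Again no library of a group reached the other group.

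Among the cells that are not leukocytes, Zbp1 also rose in endothelial cells and fibroblasts. In endothelial cells it was at 0.0638 and 0.0190 CP10K against 0.384, 0.343 and 0.271 CP10K (8.03-fold, log2 difference 2.10, SE 0.284, limma adjusted p = 1.04e-06). Fibroblasts had 0.182 and 0.0952 CP10K against 0.707, 0.749 and 0.700 CP10K (log2 difference 2.07, SE 0.227, limma adjusted p = 0.000369). In smooth muscle cells Zbp1 stayed between 0.0046 and 0.0135 CP10K in all 5 libraries and was below the filter. The share of cells with a Zbp1 UMI was 9.95% against 38.0% in macrophages, at a median of 5273.5 and 5315 UMIs per cell, and 0.297% against 0.536% in smooth muscle cells, at a median of 4780 and 5034 UMIs. Zbp1 in macrophages was therefore far above the share in smooth muscle cells, which serves as the background here. Thinned to 1000 UMIs per cell, which left out 245 cells of the Apoe-/- and 311 of the labelled knockout libraries, the share of cells with a UMI was higher in the labelled knockout libraries in 54 of 56 pairs of sensor and cell set, with 1 equal, against 56 of 56 before thinning.

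Macrophage markers moved with the groups in the cells that are not leukocytes. The summed level of 9 macrophage markers was 0.745 and 1.10 CP10K in endothelial cells of the Apoe-/- libraries and 2.94, 3.63 and 2.44 CP10K in those of the labelled knockout libraries, or 0.396% and 1.17% of the level in macrophages. In fibroblasts it was 0.757 and 0.755 CP10K against 1.84, 3.87 and 1.90 CP10K (0.320% and 0.989%). Monocyte markers were at 11.5% and 21.3% of the level in monocytes in fibroblasts and at 0.143% and 1.30% in endothelial cells. The same markers were at 38.8% and 29.4% in NK/T cells. Their part in the sensors' values was not tested.

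The p200 members were highest in leukocytes and rose most widely in macrophages. Ifi204 in macrophages was at 0.641 and 0.663 CP10K against 1.81, 1.37 and 1.71 CP10K (2.50-fold, log2 difference 1.25, SE 0.114, limma adjusted p = 6.29e-07). In dendritic cells it was at 0.174 and 0.279 CP10K against 0.952, 1.16 and 0.857 CP10K (log2 difference 1.93, SE 0.296, limma adjusted p = 0.00151). Both types showed the groups well apart. Monocytes had 0.993 and 1.53 CP10K against 2.49, 2.19 and 1.65 CP10K, and here the difference missed the threshold (log2 difference 0.73, limma adjusted p = 0.0743, 0.0175 without labelled knockout replicate 3).

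Outside the myeloid cells Ifi204 was scarce. Endothelial cells had 3 UMIs in the Apoe-/- libraries (0.0108 and 0 CP10K) and 53 in the labelled knockout libraries (0.126, 0.102 and 0.145 CP10K). The ratio of UMIs was 14.4 (95% exact interval 4.66 to 72.0, counting error only), with a limma adjusted p of 0.000721 that became 0.0522 without Apoe-/- replicate 2. Its endothelial mean was 0.83% of the macrophage mean in the Apoe-/- and 7.64% in the labelled knockout libraries, beside the rise of macrophage markers there, whose part was not tested. In fibroblasts Ifi204 was at 0.138 and 0.185 CP10K against 0.176, 0.450 and 0.367 CP10K (limma adjusted p = 0.217), with overlapping groups. NK/T cells gave 0 of 209 cells with a UMI in the Apoe-/- libraries, which allows a share of up to 1.44%, and 5 of 514 in the labelled knockout libraries.

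Ifi213 was nearly silent in the Apoe-/- macrophages and not in those of the labelled knockout libraries. It was at 0.0175 and 0.0245 CP10K against 0.450, 0.378 and 0.382 CP10K (19.2-fold, log2 difference 2.67, SE 0.171, limma adjusted p = 9.52e-09), and the share of macrophages with a UMI was 0.820% against 16.6%. Monocytes had 0.125 and 0.0591 CP10K against 0.916, 0.562 and 0.827 CP10K (8.34-fold, log2 difference 2.54, SE 0.338, limma adjusted p = 5.46e-05). NK/T cells had 0.0641 and 0.128 CP10K against 0.577, 0.560 and 0.686 CP10K (6.34-fold, log2 difference 2.20, SE 0.417, limma adjusted p = 0.00181). The groups stood apart in all 3 types, though the NK/T call rested on 4 UMIs in the Apoe-/- libraries and was lost by limma-voom (adjusted p = 0.0717). In dendritic cells the call turned on a single Apoe-/- library, on the clustering and on the scale. Ifi213 was at 0.525 CP10K in Apoe-/- replicate 1 and at 0 in replicate 2, against 0.508, 0.402 and 0.778 CP10K. The limma adjusted p was 0.282 with both, and 0.00145 (log2 difference 3.57) without Apoe-/- replicate 1. With both libraries it was 0.000188 (log2 difference 3.28) when cells were clustered on every variable gene and 0.00415 on means of the deposited log values. Only 3 UMIs stood behind the Apoe-/- value and 72 behind the other, a ratio of 11.65 with an exact interval of 3.83 to 57.8. In endothelial cells, fibroblasts and smooth muscle cells Ifi213 was below the filter.

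Mndal, a nuclear p200 protein, was called in the same 6 types as Zbp1, though with less margin in some. Macrophages had 0.357 and 0.266 CP10K against 1.03, 0.883 and 1.09 CP10K (3.21-fold, log2 difference 1.55, SE 0.133, limma adjusted p = 3.32e-07). Dendritic cells had 0.398 and 0.237 CP10K against 1.94, 2.21 and 1.60 CP10K (6.05-fold, log2 difference 2.45, SE 0.263, limma adjusted p = 6.80e-05). NK/T cells had 0.767 and 0.903 CP10K against 1.80, 2.05 and 1.99 CP10K (log2 difference 1.18, SE 0.229, limma adjusted p = 0.00234). No single library decided these calls, while a gate cell by cell lost that in NK/T cells (log2 difference 0.81, limma adjusted p = 0.0779).

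In the remaining types the Mndal call depended on single libraries. Endothelial cells had 0.228 and 0.271 CP10K against 0.472, 0.753 and 0.517 CP10K (log2 difference 1.05, SE 0.214, limma adjusted p = 0.000991, and 0.0543 without Apoe-/- replicate 1). Monocytes had 0.507 and 0.577 CP10K against 1.76, 1.30 and 0.926 CP10K (log2 difference 1.18, SE 0.256, limma adjusted p = 0.00886). The monocyte call was lost without Apoe-/- replicate 1 (0.1003) or 2 (0.105) and without labelled knockout replicate 1 (0.0954) or 2 (0.0788). Fibroblasts had 0.0712 and 0.315 CP10K against 0.628, 0.571 and 0.537 CP10K (log2 difference 1.58, SE 0.358, limma adjusted p = 0.0294), and the call was lost without labelled knockout replicate 1, 2 or 3 (0.129, 0.134 and 0.140). The groups did not overlap in any of these types, and leaving a library out lowers the number of samples as well.

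The RIG-I-like receptors were all past the threshold in macrophages, and in other types only Ifih1 was. Ddx58, the RIG-I gene, was at 0.0432 and 0.0497 CP10K against 0.130, 0.159 and 0.126 CP10K (2.98-fold, log2 difference 0.96, SE 0.184, limma adjusted p = 0.00142). Ifih1, the MDA5 gene, was at 0.0814 and 0.147 CP10K against 0.365, 0.287 and 0.348 CP10K (2.92-fold, log2 difference 1.25, SE 0.187, limma adjusted p = 0.000151). Dhx58, the LGP2 gene, was at 0.123 and 0.102 CP10K against 0.355, 0.273 and 0.294 CP10K (2.73-fold, log2 difference 1.13, SE 0.167, limma adjusted p = 0.000133). The share of macrophages with a UMI went from 2.69% to 7.38% for Ddx58, from 5.15% to 13.5% for Ifih1 and from 5.39% to 14.8% for Dhx58.

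Ddx58 passed the threshold in no other type. Its levels were 0.156 and 0.196 against 0.166, 0.325 and 0.305 CP10K in endothelial cells (limma adjusted p = 0.507) and 0.311 and 0.183 against 0.228, 0.336 and 0.222 CP10K in fibroblasts (limma adjusted p = 0.904). The groups overlapped in both. Smooth muscle cells had 0.0609 and 0.0725 CP10K against 0.105, 0.0996 and 0.0762 CP10K without overlap (log2 difference 0.30, SE 0.111, limma adjusted p = 0.130, unadjusted 0.0150). There limma-voom on summed UMIs gave a log2 difference of 0.62 (adjusted p = 0.0392), so the smooth muscle call depends on the method. In monocytes Ddx58 had 2 UMIs in the Apoe-/- and 25 in the labelled knockout libraries, a ratio of 7.04 (exact interval 1.75 to 61.3), with a limma adjusted p of 0.0750. NK/T cells were at 0.0783 and 0.105 CP10K against 0.174, 0.344 and 0.478 CP10K, apart but not past the threshold (limma adjusted p = 0.227).

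Ifih1 was past the threshold in fibroblasts and monocytes besides macrophages, in each of them narrowly. Fibroblasts had 0.0562 and 0.0370 CP10K against 0.136, 0.224 and 0.220 CP10K (log2 difference 1.32, SE 0.301, limma adjusted p = 0.0299, and 0.0547 to 0.193 without 1 of the labelled knockout libraries). Monocytes had 0.0884 and 0.0844 CP10K against 0.293, 0.303 and 0.468 CP10K (log2 difference 1.54, SE 0.377, limma adjusted p = 0.0214, and 0.0548 to 0.174 without any 1 of the 5 libraries). The fibroblast call was also lost with limma-voom (adjusted p = 0.221), clustering on every variable gene (limma 0.246) and the gate cell by cell (0.213). A replicate block (limma adjusted p = 0.108) and no filter (0.105) lost it too, while equal cluster weights kept it (0.0328). In monocytes limma-voom (adjusted p = 0.110), the block (limma 0.0591) and no filter (0.0598) lost the call. Neither type showed overlap between the groups. In endothelial cells, its highest type among the Apoe-/- libraries, Ifih1 was at 0.302 and 0.152 CP10K against 0.316, 0.326 and 0.280 CP10K with overlap (limma adjusted p = 0.502). Dhx58 was past the threshold in macrophages only among the 6 types in which it was tested. Its log2 differences were 0.37 in endothelial cells, 0.37 in fibroblasts, 0.70 in monocytes, 0.98 in dendritic cells and 0.86 in NK/T cells, with limma adjusted p between 0.288 and 0.732.

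The change in the sensors within types and the change in cell numbers together moved where the UMIs of a sensor lay. Of all Zbp1 UMIs, macrophages held 37.8% in the Apoe-/- and 54.0% in the labelled knockout libraries, and smooth muscle cells 5.8% and 0.7%. For Ifi204 the macrophage part was 62.1% and 69.7%, and for Ifi213 it was 35.7% and 62.8%. The Ifi213 percentages rest on 28 UMIs in the Apoe-/- libraries, 10 of them in macrophages, and on 784 in the others. Ddx58 UMIs were mostly from smooth muscle cells in the Apoe-/- libraries (54.5%), against 25.4% in the labelled knockout libraries, where macrophages gave 21.8% instead of 7.7%. For Ifih1 the part of endothelial cells went from 32.3% to 11.5% and that of macrophages from 29.3% to 47.7%.

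**Figure D3:**
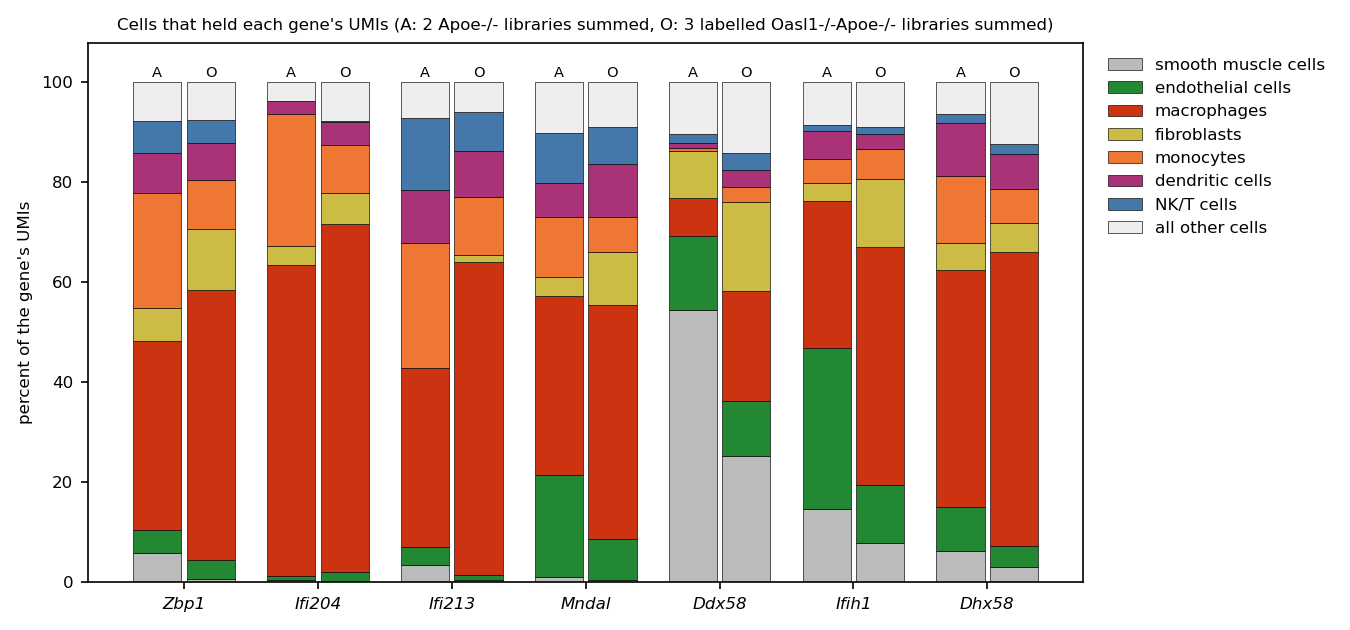
Percent of each sensor's UMIs that came from each cell type, for the Apoe-/- and the labelled knockout libraries. Smooth muscle cells give 54.5% of the Ddx58 UMIs in the Apoe-/- libraries, and macrophages give a larger part of all 7 sensors in the labelled knockout libraries.

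Macrophages consisted of 3 clusters with different shares in the groups. They were made without the sensors, the pathway lists and a fixed set of interferon-response gene names. Other genes, such as Ccl12 and Ccl8, were not left out, so the clusters are not shown to be independent of the interferon response. A cluster led by Trem2, Gpnmb and Lpl held 55.4% of the macrophages in the Apoe-/- and 39.3% in the labelled knockout libraries. One led by Ccl12, Cd72 and Ccl8 held 14.5% and 44.0%, and one with few UMIs per cell (median 1273) held 30.1% and 16.7%. Zbp1 was higher without overlap in each of them, at mean levels of 0.238 against 0.875 CP10K in the Trem2 cluster, 0.271 against 2.12 CP10K in the Ccl12 cluster and 0.296 against 1.28 CP10K in the low-UMI cluster. The Zbp1 means of the 3 clusters thus lay closer together in the Apoe-/- than in the labelled knockout libraries, which was not tested. All 7 sensors were apart in the Trem2 cluster. The share of all genes apart in a single cluster was not counted, and in macrophages as a whole 26.2% were higher without overlap. The groups overlapped for Ddx58 and Ifih1 in the Ccl12 cluster and for Ifi204 and Ddx58 in the low-UMI cluster. Mndal in the Ccl12 cluster was at 0.818 and 0.873 CP10K against 1.34, 1.12 and 1.503 CP10K. With the 3 clusters weighted equally in every library, 5 of 7 sensors were past the threshold, and Ddx58 (log2 difference 0.82, limma adjusted p = 0.0789) and Ifih1 (0.81, limma adjusted p = 0.0590) were not. Without the low-UMI cluster all 7 were. The share of all genes called under these settings was not counted (10.2% were higher in the main analysis of macrophages).

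**Figure D4:**
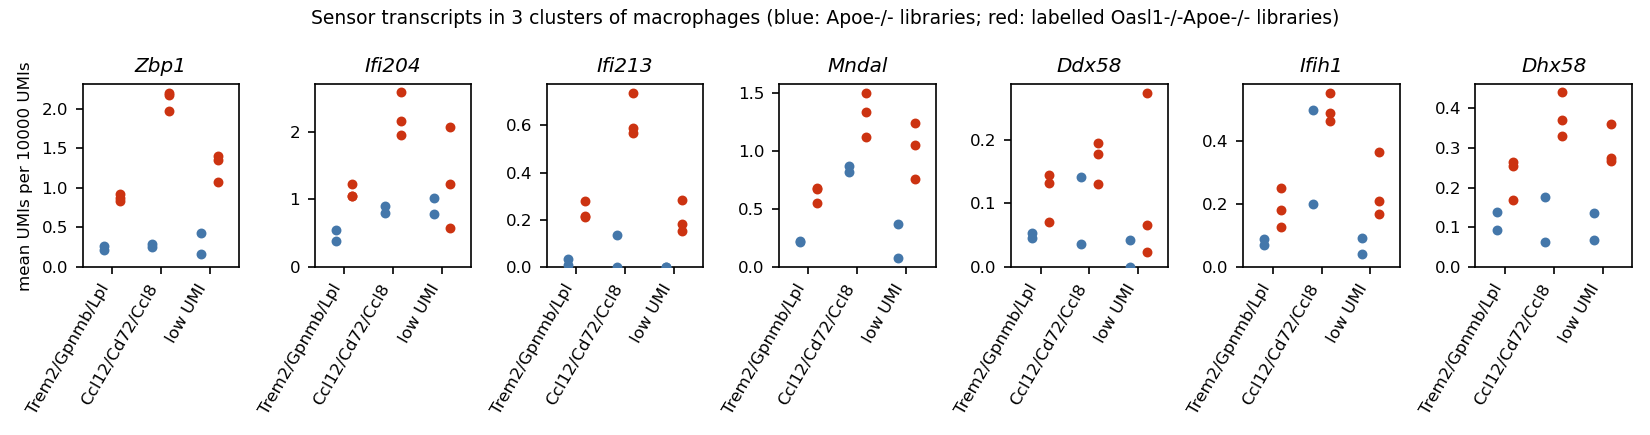
Level of each sensor (CP10K) in the 3 macrophage clusters, with 1 point per library. For Zbp1 the labelled knockout libraries lie highest in the Ccl12 cluster, at a mean of 2.12 CP10K, and above the Apoe-/- libraries in all 3.

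Endothelial cells and fibroblasts were mixtures as well. An endothelial cluster led by Klk10, Adh7 and Ptprb held 79.8% of the type in the Apoe-/- and 61.4% in the labelled knockout libraries, and one led by Emcn, Plvap and Selp held 13.9% and 34.8%. Zbp1 was at 0.105 and 0.0671 CP10K in the Emcn cluster of the Apoe-/- libraries and at 0.693, 0.789 and 0.585 CP10K in that of the labelled knockout libraries. In the Klk10 cluster its means were 0.0304 and 0.113 CP10K, with overlap. The fibroblast cluster led by Prg4, Lum and Mmp3 held 42.6% of the type in the Apoe-/- and 63.8% in the labelled knockout libraries. Its median was 8932.5 UMIs per cell, against 3287.5 in the cluster led by Clec3b, Gpx3 and Pi16. The Zbp1 means were 0.0743 and 0.421 CP10K in the former and 0.185 and 1.24 CP10K in the latter, both without overlap. When cells were clustered on every variable gene, a cluster with Lum and Prg4 among its top genes was named chondrocytes. Fibroblasts then numbered 49 to 106 cells per library, in place of 109 to 280. With the clusters of a type weighted equally, 3 sensors were past the threshold in endothelial cells and 3 in fibroblasts, and the share of all genes was not counted.

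Whether the change differed between cell types was tested on the differences within each library. Macrophages and smooth muscle cells could be compared for Ddx58 only, whose change was larger in macrophages by 0.67 on the log2 scale (SE 0.129, limma adjusted p = 0.0393), where 4.22% of all genes were called. This call was lost without each of the 5 libraries (limma adjusted p 0.0818 to 0.133) and with a pseudocount of 0.5 (difference 0.16, adjusted p = 0.0915). Between macrophages and endothelial cells 0 of 6 sensors differed by limma (0 at an unadjusted p under 0.05, background 0.124%). Between macrophages and fibroblasts 0 of 6 did (2 at an unadjusted p under 0.05, Ddx58 and Dhx58, background 0.0696%), and between endothelial and smooth muscle cells 0 of 1 (unadjusted p = 0.636, background 0.0242%). A pseudocount of 0.5 called Zbp1 and Ifi204 between macrophages and endothelial cells and Zbp1 between macrophages and fibroblasts, with the larger change in macrophages. That Ddx58 or Dhx58 passed the threshold in macrophages and not in endothelial cells or fibroblasts is thus no evidence that the changes differ.

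The other genes of the pathways were taken from 7 lists of 53 genes, of which 47 were in the table. Over the 7 types, the share of all tests past the threshold was 3.38% higher and 2.01% lower. Of all genes 20.5% were higher in the whole aorta and 10.2% in macrophages. In the whole aorta 3 of 7 tested adaptors, kinases and factors and 3 of 4 regulators of RIG-I-like receptors were higher past the threshold. So were 1 of 3 cell death partners of Zbp1, 3 of 5 other RNA sensors and effectors, 2 of 5 nucleases and 2 of 3 endosomal sensors. None of these was lower there. Of the remaining p200 genes 7 of 7 tested were higher in the whole aorta, 7 of 8 in macrophages, 4 of 4 in fibroblasts, 4 of 7 in monocytes, 4 of 7 in dendritic cells, 1 of 1 in endothelial cells and 0 of 6 in NK/T cells, and none was lower. By limma-voom the count was 0 of 4 in fibroblasts and 3 of 7 in monocytes, and over the types 15 of 33 in place of 20. The count in NK/T cells stood at 5 of 6 at an unadjusted p under 0.05 and at 0 by limma-voom, beside both tested p200 sensors, Ifi213 and Mndal, past the threshold there. Aim2, a p200 gene that forms inflammasomes, was the one not called in macrophages (log2 difference 0.22, named after its value was seen). The median log2 difference of the list in macrophages was 1.31, beside 0.04 for all genes. Ifi203 was past the threshold in 5 types, with 0.182 ± 0.037 against 0.638 ± 0.0039 CP10K (SD, n = 2 and 3 libraries) in macrophages (log2 difference 1.57, limma adjusted p = 4.14e-07). Ifi211 (2.05), Ifi209 (2.33) and Ifi206 (2.37) had larger log2 differences there.

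Among the genes through which the sensors signal, the calls came from Irf7 and Tmem173. Of 52 tests of adaptors, kinases and transcription factors over the 7 types 5 were past the threshold (9.62%), all higher, and 5 by limma-voom. Irf7, the interferon-regulatory factor that amplifies the response, accounted for 3 of them (in macrophages 0.332 ± 0.042 against 1.07 ± 0.092 CP10K, SD, n = 2 and 3 libraries, limma adjusted p = 9.31e-08). Tmem173, the gene of the DNA-pathway adaptor STING, accounted for the other pair, in macrophages (log2 difference 0.76, limma adjusted p = 0.00222) and endothelial cells (0.73, limma adjusted p = 0.0278). Mavs and the other 6 genes of the list passed the threshold in no type. Of the cell death partners of Zbp1, 0 of 29 tests passed by limma (3 at an unadjusted p under 0.05, 0 by limma-voom), so no call in this list stood beside that of Zbp1 within a type. Among regulators of the RIG-I-like receptors 1 of 27 tests passed (3.70%), Pcbp2 in smooth muscle cells.

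Of the other RNA sensors and effectors 6 of 42 tests passed (14.3%), all higher, and 3 by limma-voom. They were Adar (log2 difference 0.84), which edits double-stranded RNA, Ddx60 (1.22) and Zc3hav1 (0.46) in macrophages, Zc3hav1 in smooth muscle cells, and Eif2ak2, the RNA-dependent kinase PKR, in monocytes and dendritic cells. Genes listed as nucleases passed in 5 of 34 tests (14.7%), and 4 by limma-voom. Samhd1 was higher in 3 types, in macrophages at 0.530 ± 0.14 against 1.24 ± 0.053 CP10K (SD, n = 2 and 3 libraries, limma adjusted p = 5.71e-06). Subunits of RNase H2 were lower in macrophages, Rnaseh2c by -0.43 on the log2 scale (limma adjusted p = 0.0117) and Rnaseh2b with -0.52 (limma adjusted p = 0.0491). Endosomal sensors, which read nucleic acids in another compartment, passed in 1 of 21 tests (4.76%), Unc93b1 in macrophages (log2 difference 0.22, limma adjusted p = 0.0327).

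Over 35 points (5 libraries in 7 cell types, which share libraries and depth) the genes most like each sensor were listed by Pearson's r of log2 levels, as a description. Zbp1 was most like Irf7 (0.93), B2m (0.92) and Mndal (0.92), Ifi204 most like Ifi207 (0.95), Mndal most like Ifi203 (0.95) and Ifi213 most like Oas3 (0.92). Dhx58 was most like Oas1a (0.94), Oas3 (0.90) and Oasl1 (0.90), and Ifih1 most like Bst2 (0.88). Ddx58 had the lowest values, with Ly6a at 0.73 and Ifit3 and Ifit3b at 0.72. Among the sensors Zbp1 and Mndal were most alike (0.92) and Ifi204 and Ddx58 least (-0.06).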

How the data were processed

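Single-cell suspensions of the aortic arch were sequenced with 10x Genomics 3′ chemistry. Per the labels and the submitters' processing notes, the authors mapped reads to mm10 with Cell Ranger 3.1.0 and used Seurat 4.0.3 to keep cells with more than 200 genes and less than 10% mitochondrial UMIs, and removed doublets before deposit, so no doublet caller was run here. How reads shared by close copies or opposite strands were counted is not given in the sources used here. Each deposited value is a natural log, taken by the authors from 1 + UMIs per 10000 of the cell, and whole UMIs were recovered from 100% of values (tolerance 0.01).

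Values were returned to the linear scale (CP10K). The table holds fewer cells than the study states. Cells were clustered with scanpy 1.11.5 and leidenalg 0.10.2 (2000 variable genes, 12 principal components, 20 neighbours, resolution 1). The variable genes were chosen without the sensors, the pathway lists and a fixed set of interferon-response gene names. Clusters were named by at least 3 markers that were 2-fold higher and in 10% of the cells. Mean CP10K per library and type was compared, as log2(CP10K + 0.05) with a filter at a mean of 0.05, between 2 and 3 libraries by limma 3.58.1 in R 4.3.3 (lmFit, eBayes with trend) with Benjamini-Hochberg adjustment over all genes of a type. The difference between types was tested on within-library differences. The 7 sensors and the lists were chosen with earlier results of these data known. From the lists, the text names up to 4 genes each, those past the threshold in the most types (ties by the whole-aorta difference), and for each sensor up to 3 genes of highest Pearson's r. On simulated data the macrophage test recovered 88% of 100 genes changed 2-fold among 7803, with 7 false calls. The between-type test, of macrophages against smooth muscle cells, recovered 51.1% of 90. The changed genes were drawn above a floor in the Apoe-/- libraries, with a fixed spread. Some sensors lie below that floor, such as Ifi213 (mean 0.021 CP10K) and Ddx58 (0.0464 CP10K) in Apoe-/- macrophages. The recovery therefore does not hold for them or for the types not simulated. Alternatives were other pseudocounts, filters, tests, clusterings and a gate cell by cell, a replicate block, and leaving out each library. Sequences are from RefSeq, positions from GENCODE vM21, in which 16324 of 16498 gene names were found. Intervals and limits of 0 cover counting error only.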

Additional observations from a re-analysis of the deposited data

Results flagged for a closer look

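The change of Ddx58 was larger in macrophages than in smooth muscle cells by 0.67 on the log2 scale, the only difference between types past the threshold among the sensors in limma, and it was lost without each library.

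Cell sets that no test used also held sensor UMIs. In neutrophils, with 21 to 26 cells per library, Ifi204 was at a mean of 3.95 CP10K in the labelled knockout libraries (3.13, 4.16 and 4.55 CP10K) and at 0 in both Apoe-/- libraries. It was found in 19 of 70 cells (27.1%, 95% Wilson interval 18.1 to 38.5) against 0 of 46, which allows a share of cells with a UMI of up to 6.52% (Wilson upper bound 7.71%) at a median of 995.5 UMIs per cell and does not limit cells that express the gene. It was at least 5.10-fold higher against a floor of 3 UMIs over the group. Zbp1 in neutrophils was at a mean of 1.11 CP10K in the labelled knockout libraries (1.25, 1.59 and 0.487 CP10K) and at 0 in both Apoe-/- libraries, in 10 of 70 cells (14.3%, 7.95 to 24.3) and at least 2.11-fold higher. The differences in neutrophils were not tested. Both genes are named because their groups were apart, and the share of all genes apart there was not counted. The other sensors overlapped: Ddx58 and Dhx58 each had 0 against 3 UMIs, Ifi213 0 against 1, Mndal 1 against 0, and Ifih1 none.

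The cluster that markers left unnamed, led by Itih4, Sfrp2 and Mt2, held 160 to 182 cells per library. Zbp1 was at a mean of 0.147 CP10K there in the labelled knockout libraries (0.127, 0.191 and 0.123 CP10K) and at 0.0202 and 0.0324 CP10K in the Apoe-/- libraries. Mndal had a mean of 0.0850 CP10K against 0.0298 and 0.0341 CP10K, Ddx58 0.199 CP10K against 0.107 and 0.139 CP10K, and Ifih1 0.0958 CP10K against 0.0263 and 0.0244 CP10K. These 4 genes are named because no overlap was seen between the groups, and the differences were not tested. Ifi204 (2 against 6 UMIs) and Dhx58 (4 against 11 UMIs) overlapped there, and Ifi213 had no UMI. The share of all genes apart in this cluster was not counted. Groups of 2 and 3 libraries are too small to mark a single library as standing apart.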

How the results depend on the processing

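Over settings other than leaving out a library, 466 results for a sensor within a cell set kept direction and side of the threshold, 14 lost and 9 gained a call, and 3 changed sign. Leaving out each library gave 7 to 7 sensors past the threshold in the whole aorta and in macrophages, 0 to 0 in smooth muscle cells, 2 to 3 in endothelial cells, 1 to 3 in fibroblasts, 2 to 4 in monocytes, 3 to 4 in dendritic cells, 3 to 3 in NK/T cells, and 0 to 0 in each comparison between types.

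With a filter at 0.2 CP10K fewer genes were tested, and 3 sensors were called in the whole aorta. Without a filter 1 was called in smooth muscle cells and 1 in fibroblasts. Means of the deposited log values called 1 in smooth muscle cells and limma-voom 1. A gate cell by cell called 1 in smooth muscle cells and 1 in fibroblasts. With a pseudocount of 0.5 the between-type tests called 0 for macrophages against smooth muscle cells, 2 against endothelial cells and 1 against fibroblasts. The cause was not tested, and the share of all genes called under these settings was not counted.

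Ddx58 in fibroblasts, which was not called, changed sign with limma-voom (-0.019), with clustering on every variable gene (-0.31), with the gate (-0.61) and without Apoe-/- replicate 2 (-0.23) or labelled knockout replicate 2 (-0.077), and ranged from -0.23 to 0.40 over the libraries left out. Without Apoe-/- replicate 2, Ifih1 was at -0.15 in dendritic cells and -0.0003 in NK/T cells (without replicate 1, 1.003 and 1.48). None of the differences between types that changed sign was called in the main analysis. Against endothelial cells these were Zbp1 (-0.40 with a pseudocount of 0.01, -0.027 without Apoe-/- replicate 1, at most 0.45) and Ifi204 (0.58 with a pseudocount of 0.5). Against fibroblasts, Mndal was at 0.23 with a pseudocount of 0.5 and at 0.95, 0.0006 and 0.044 without Apoe-/- replicate 1 and labelled knockout replicates 1 and 2 (at least -1.008), and Ifih1 at 0.10 with a pseudocount of 0.5 and at 0.37 and 0.12 without Apoe-/- replicate 2 and labelled knockout replicate 2 (at least -0.50). Between endothelial and smooth muscle cells Ddx58 was at -0.048 without labelled knockout replicate 3 and at most at 0.46.

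Libraries share replicate numbers 1 and 2, and the correlations of their deviations lay between -0.0564 and 0.0429. Noise in low genes lowers such correlations, so they do not show that the libraries share only a number. The labels do not say what the numbers stand for. With a replicate block 2 sensors were called in fibroblasts and 5 in monocytes, where Ifi204 (limma adjusted p = 0.00169) and Ddx58 (0.0260) gained the call and Ifih1 lost it (0.0591). In the other sets the block left the count of calls as it was. No value came from dendritic cells at resolution 2, nor from monocytes and dendritic cells with the gate, which had fewer than 20 cells in a library. At resolution 2 a cluster of 347 cells led by Cd209a had 3 monocyte and 2 dendritic cell markers and was left unnamed. Only a cluster of 69 cells led by Fscn1 and Ccr7 kept the dendritic name, so that name depended on the resolution. Weighting clusters equally and leaving out the low-UMI macrophages were chosen after seeing the data. With 2 and 3 libraries, changes of 2-fold between macrophages and smooth muscle cells were often missed in simulation (51.1% recovered). That simulation changed only genes above a floor that some sensors do not reach, and other pairs of types were not simulated. A missed threshold between types thus says little.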

Other observations

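Cycling macrophages, with 14 to 69 cells per library, were too few for a test. Zbp1 was at 0.141 and 0.365 CP10K in the Apoe-/- libraries and at 1.43, 2.05 and 0.909 CP10K in the labelled knockout libraries. Ifi213 had 0 UMIs in the Apoe-/- and 41 in the labelled knockout libraries, which is at least 2.62-fold higher against a floor of 3 UMIs over the group. The groups overlapped for Ifi204, at 0.311 and 1.28 CP10K against 1.07, 1.38 and 1.45 CP10K. In B cells, with 13 to 41 cells per library, no UMI of Ddx58 or Ifi204 was found in any library, while Mndal was at 0.681 and 0.909 CP10K against 1.33, 0.479 and 2.13 CP10K, with overlap.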
